A study of Mus musculus with 12 samples.

Results

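Integrins are cell surface receptors made of an alpha and a beta chain, and laminins are secreted trimers of an alpha, a beta and a gamma chain. The transcripts described here are those of all genes whose symbol names an integrin alpha chain, an integrin beta chain or a laminin chain. They were 37 of the 27179 genes in the expression table, 26 for integrins and 11 for laminins. Laminins build the basement membrane under the gut epithelium and around smooth muscle cells, vessels, nerves and enteric ganglia, and integrins hold cells to it and to fibronectin, collagen and tenascin. Integrins join the matrix to actin through talin and kindlin or, in the hemidesmosome of epithelial cells, to keratin through plectin. Leukocytes use integrins of their own to stick to vessel walls and to epithelium.

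RNA was sequenced from full-thickness pieces of mouse colon, taken where diphtheria toxin with ink had been injected into the muscle wall at laparotomy. The 5 control libraries came from R26-iDTR mice, which carry the inducible toxin receptor without Cre. The 7 ablated libraries came from BAF53b-Cre::R26-iDTR mice, in which the promoter of the neuronal gene BAF53b drives Cre and so the receptor. Both groups were given the toxin, and age, sex and the interval to dissection are not given in the sources used here. Nothing says that the libraries are from different mice, and the tests therefore use the variation among libraries, which may be technical. Levels are TPM, deposited by the authors and scaled to gene length and depth, and are given as mean ± SD, control first and ablated second (n = 5 and 7 libraries).

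Depth was 13.4 to 26.9 M reads a library. Of 9 neuronal marker genes 8 fell, with a summed level of 133 ± 48.5 and 20.1 ± 5.78 TPM in control and ablated libraries. Epithelial markers summed to 16208 to 22373 TPM over the 12 libraries and smooth muscle markers to 6838 to 23332.5 TPM, and no gene of either list passed the test. B and plasma cell markers summed to 509 to 821 TPM in control and 84.2 to 514 TPM in ablated libraries. None of the 6 passed, and 5 were lower at an unadjusted p under 0.05 (limma). Of 7 enteric glia and Schwann cell markers 6 had a negative log2 fold change. None passed, and 3 were lower at an unadjusted p under 0.05 (limma). Their sum was 44.9 ± 5.27 and 60.9 ± 31.01 TPM, in which Erbb3, the highest of them, was at 29.8 and 50.07 TPM. Ablated 1 had 25.6% of its TPM in mitochondrial transcripts, against 5.202 to 14.2% elsewhere. Ablated 3 had the highest sum of 8 pan-leukocyte markers (417 TPM), and ablated 6 had the highest sum of smooth muscle markers (23332.5 TPM). The 8 skeletal muscle markers summed to 21.3 to 39.4 TPM in control and 39.7 to 138 TPM in ablated libraries, without overlap and highest in ablated 6. Of these, 6 were tested, 2 were higher at an unadjusted p under 0.05 and none passed; their part was not tested.

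Of the 34 members with enough RNA to test (at least 0.5 TPM in 5 or more libraries), 1 rose and none fell. It was Lama3, the alpha chain of the epithelial laminin that anchors hemidesmosomes. Among all 16164 genes tested 0.421% rose, 1.01% fell and 1.43% passed in either direction (limma on log2(TPM + 0.5), Benjamini-Hochberg adjusted p under 0.05). At an unadjusted p under 0.05, 12 members were higher and 0 lower, against 7.07% and 4.75% of all genes. With voom on reads recovered from the TPM no member fell either, and 10 were higher and 0 lower at an unadjusted p under 0.05. The median log2 fold change was 0.23 over the members and 0.032 over all genes. Of all genes tested 8997 of 16164 were positive, and of the members 26 of 34. All 10 laminins tested were positive (median 0.39), and 16 of 24 integrins were (median 0.11). Lamc3, the laminin left out by the minimum, was lower in ablated libraries, with means of 0.32 and 0.17 TPM. In bulk tissue a change in the number of cells of a type cannot be told apart from a change in RNA per cell.

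**Figure D1:**
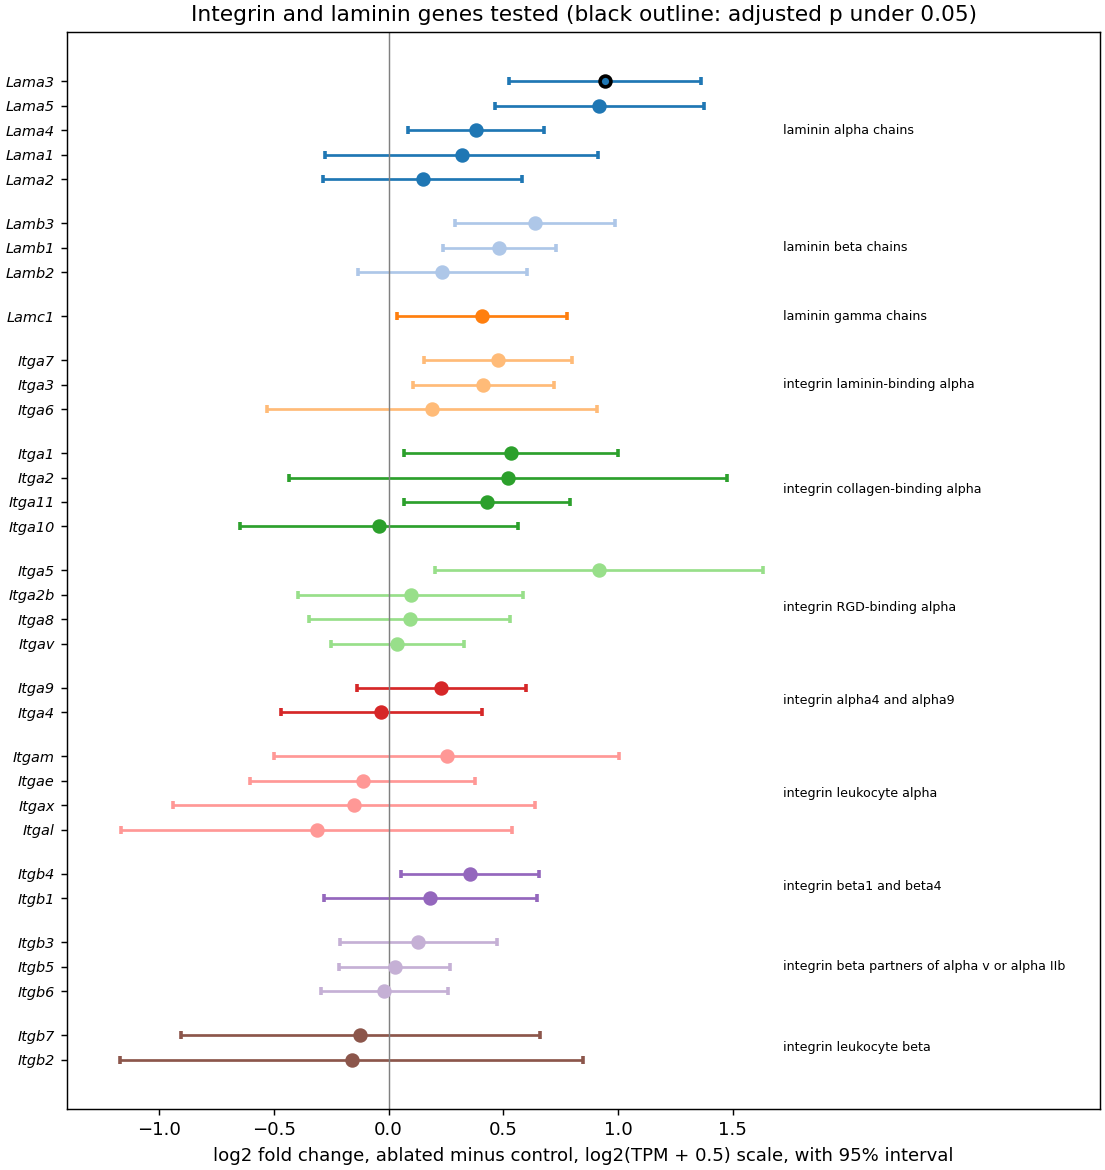
Log2 fold change (ablated minus control, log2(TPM + 0.5) scale, x axis) of 33 genes tested, by role, with 95% intervals. All 9 laminins shown lie right of 0, with Lama3 furthest at 0.94, and the leukocyte integrins scatter around 0 with wide intervals.

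The members called changed with the settings. Lama3 passed in 16 of 24 alternatives, Lama5 in 6, Lamb1 in 4 and Lamb3 in 3. The share of all genes that rose was 4.05% with a weight per library, 2.44% when the epithelial marker score was a covariate, 2.07% when the mitochondrial share was, 0.582% with the smooth muscle score and 0.0928% with the library number as a block. It was 0.408% and 0.427% with 1 and 0.1 added before the log, 0.333% with no minimum, 0.403% with a minimum of 1 TPM, 0.353% with median of ratios scaling, 0.309% with quantile scaling and 0.297% with voom. Without control 1 to 5 in turn it was 0.26, 0.142, 0.192, 0.254 and 0.247%, and without ablated 1 to 7 it was 0.78, 0.353, 0.384, 0.278, 0.501, 0.322 and 0.278%.

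In 4 laminin genes every ablated library lay above every control library: Lama3, Lama5, Lamb1 and Lamb3. Among all genes, 1.33% were apart in this way with ablated higher, and 2.88% in either direction. The promoters of 3 of them are shown because their RNA levels did not overlap between groups. Each window runs from 250 bases before to 50 bases after a RefSeq start of transcription (GRCm38.p6), 5′ to 3′ on the gene's strand. They lie at chr2:180225810-180226109 (minus strand), chr12:31265043-31265342 (plus strand) and chr1:193301744-193302043 (plus strand). Lamb3 has a second RefSeq window, chr1:193301993-193302292, which is not shown and holds none of the motifs named below. Both Lamb3 windows lie inside the GENCODE span of the gene, not at its outer end. Capitals mark GGGCGG, the GC box, on either strand.
Lama5: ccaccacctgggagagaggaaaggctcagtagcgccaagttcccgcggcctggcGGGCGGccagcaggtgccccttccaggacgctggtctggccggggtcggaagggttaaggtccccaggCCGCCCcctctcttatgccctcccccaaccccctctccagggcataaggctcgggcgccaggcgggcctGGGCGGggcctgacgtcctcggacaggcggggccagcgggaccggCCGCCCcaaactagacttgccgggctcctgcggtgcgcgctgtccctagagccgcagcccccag
Lamb1: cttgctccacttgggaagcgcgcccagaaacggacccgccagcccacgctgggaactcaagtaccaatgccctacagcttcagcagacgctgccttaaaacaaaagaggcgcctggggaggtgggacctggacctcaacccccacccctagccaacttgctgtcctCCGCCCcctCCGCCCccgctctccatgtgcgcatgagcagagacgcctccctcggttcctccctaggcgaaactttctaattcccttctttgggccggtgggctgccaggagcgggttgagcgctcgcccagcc
Lamb3: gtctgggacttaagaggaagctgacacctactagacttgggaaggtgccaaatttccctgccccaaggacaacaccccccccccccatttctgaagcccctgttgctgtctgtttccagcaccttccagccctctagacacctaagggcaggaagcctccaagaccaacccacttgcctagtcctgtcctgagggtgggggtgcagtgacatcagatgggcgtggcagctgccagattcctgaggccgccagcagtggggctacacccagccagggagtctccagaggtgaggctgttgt
The Lama5 window holds 4 GC boxes, the Lamb1 window 2 and the Lamb3 window none; 35.7% of the 32851 windows in the table hold one. TGANTCA, the AP-1 motif, is in 7.81% of all windows and TATAAA, the TATA box, in 13.6%, on either strand, and these 3 windows hold neither. The matches do not overlap each other, and GC content was 72.7%, 63.7% and 59.3%, against a median of 52.67% over all windows.

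Lama3 (Entrez gene 16774, plus strand of chromosome 18, 12333819 to 12583013, GRCm38) encodes the alpha chain to which hemidesmosomes bind. Lama3 was at 6.64, 9.01, 10.6, 12.7 and 11.02 TPM in control 1 to 5 and at 22.3, 14.8, 15.2, 25.5, 22.95, 14.2 and 23.4 TPM in ablated 1 to 7. Ablated 2, 3 and 6 were the lowest of their group and still above control 4, the highest control. The means were 9.99 ± 2.28 and 19.8 ± 4.83 TPM, 1.98-fold, with a log2 fold change of 0.94 (95% interval 0.52 to 1.36) and an adjusted p of 0.0281 (limma). The call was lost without control 1, 2, 3 or 5 (adjusted p = 0.0724, 0.09801, 0.0701 and 0.0562) and without ablated 4, 5 or 7 (0.0599, 0.0523 and 0.0651), with log2 fold changes of 0.81 to 1.03 over all alternatives. With the epithelial score as a covariate the log2 fold change was 0.84 (adjusted p = 0.02103), and with the smooth muscle score it was 1.01 (adjusted p = 0.00628).

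Lamb3 (Entrez gene 16780, plus strand of chromosome 1, 193207699 to 193343878) encodes the beta chain that joins the Lama3 chain, and it had the highest level of the laminin transcripts. Lamb3 was at 54.03, 57.9, 60.4, 70.4 and 66.6 TPM in control 1 to 5 and at 130.3, 76.1, 76.4, 103, 105, 72.9 and 126 TPM in ablated 1 to 7. Ablated 1, 4, 5 and 7, the libraries with high Lama3, were also the highest for Lamb3. The log2 fold change was 0.64 (95% interval 0.29 to 0.99), with an adjusted p of 0.0825. With the smooth muscle score as a covariate the adjusted p was 0.00451, and with the epithelial score it was 0.0536.

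Lama5 (Entrez gene 16776, minus strand of chromosome 2, 180176373 to 180225859) encodes the alpha chain found throughout adult epithelial and vascular basement membranes, with Lamb1 and Lamc1 among its partners. Lama5 was at 8.23, 11.4, 11.5, 11.8 and 14.1 TPM in control 1 to 5 and at 34.1, 24.3, 20.3, 17.7, 15.1, 30.8 and 16.4 TPM in ablated 1 to 7. Its highest values were in ablated 1 and 6, another order than that of Lama3. The means were 11.4 ± 2.11 and 22.7 ± 7.37 TPM, with a log2 fold change of 0.92 (95% interval 0.47 to 1.37) and an adjusted p of 0.0509, just over the threshold. It passed without ablated 1, 5 or 7 (adjusted p = 0.0483, 0.0306 and 0.0498) and with the epithelial score as a covariate (0.00316), and over all alternatives its adjusted p ran from 0.00316 to 0.326.

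Lamb1 (Entrez gene 16777, plus strand of chromosome 12, 31265234 to 31329644) encodes a beta chain of widespread laminins. Lamb1 was at 17.8, 15.3, 11.7, 14.2 and 12.9 TPM in control 1 to 5 and at 20.6, 23.9, 19.1, 18.2, 18.9, 20.6 and 19.9 TPM in ablated 1 to 7. The ablated libraries were close together, and the gap between the lowest of them and control 1 was small. Lamb1 had a log2 fold change of 0.48 (95% interval 0.24 to 0.73) with an adjusted p of 0.0594, and without control 1 it was 0.56 (adjusted p = 0.0312; 0.0224 to 0.279 over all alternatives). Lamc1 encodes the gamma chain of most laminin trimers. Lamc1 was at 16.3, 11.8, 11.9, 11.96 and 13.5 TPM in control 1 to 5 and at 11.2, 20.6, 17.8, 18.96, 16.3, 24.98 and 15.2 TPM in ablated 1 to 7. The groups overlapped, and ablated 1 was the lowest of all 12. Lamc1 had a log2 fold change of 0.41 (95% interval 0.038 to 0.78), adjusted p = 0.354.

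**Figure D2:**
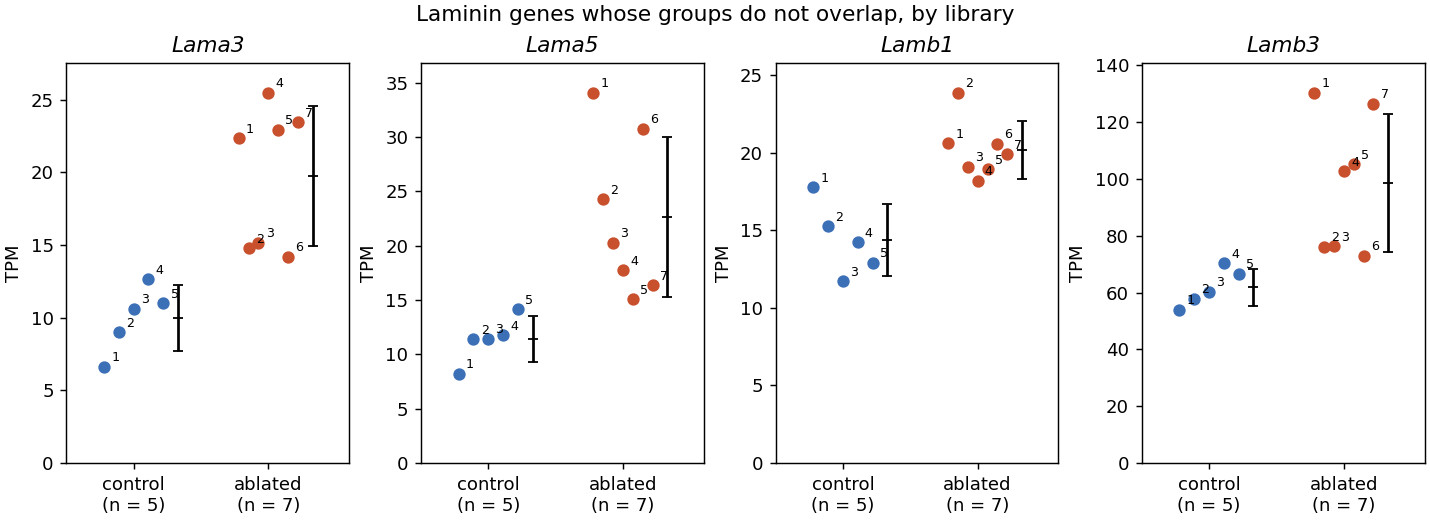
TPM of Lama3, Lama5, Lamb1 and Lamb3 in each library (points), with the mean and SD of each group. In each panel the lowest ablated library lies above the highest control library, 14.2 against 12.7 TPM for Lama3.

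**Figure D3:**
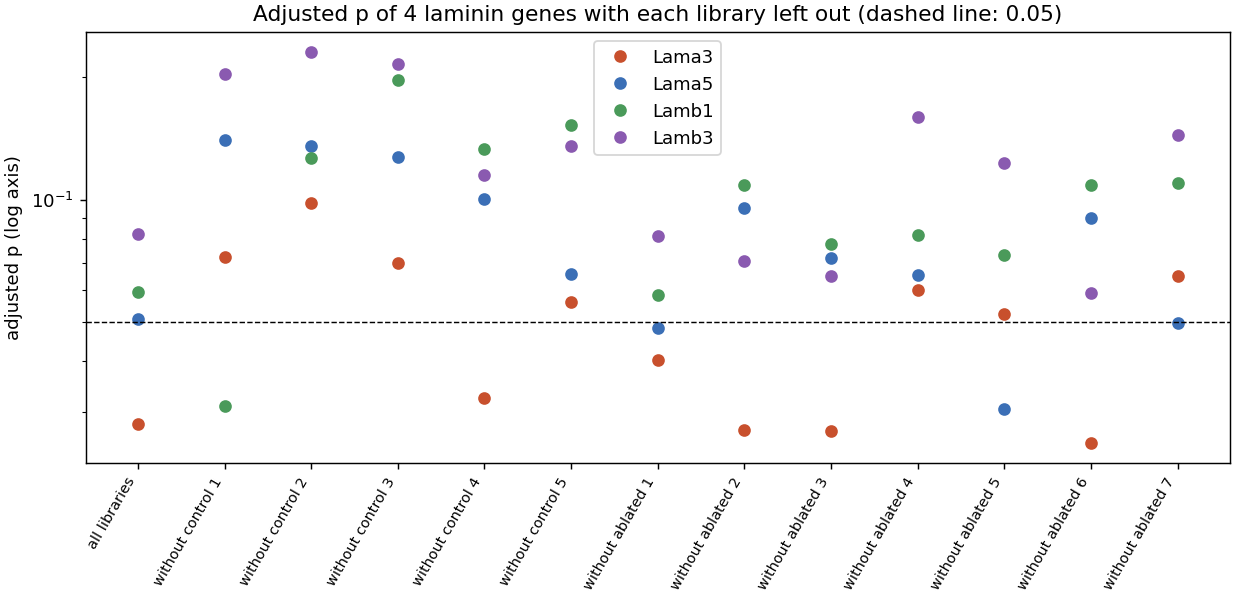
Adjusted p (log y axis) of the same 4 genes with all libraries and with each library left out in turn (x axis); the dashed line is 0.05. Lama3 lies below the line in 5 of the 12 cases, Lama5 in 3, Lamb1 in 1 and Lamb3 in 0.

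The other laminin chains described belong mostly to muscle, vessels, nerve and embryonic tissue, and none passed. Lama4, of vessels and muscle, had means of 6.74 ± 0.765 and 9.01 ± 1.699 TPM, and Lama2, the chain around muscle and Schwann cells, 1.68 ± 0.387 and 1.94 ± 0.557. Lama1, of embryonic basement membranes, was near the minimum at 0.453 ± 0.0518 and 0.8003 ± 0.674 TPM. Lamb2, of muscle and nerve laminins, was at 18.4 ± 0.943 and 22.5 ± 6.14 TPM. Lamc3 was under the minimum, at 0.3201 ± 0.0675 and 0.169997 ± 0.0849 TPM from 3 to 31 reads a library, and its adjusted p was 0.2202 in a fit with no minimum.

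The 5 laminin alpha chains together came to 30.3 ± 3.13 and 54.2 ± 7.0997 TPM, with control before ablated, and the lowest ablated sum (46.6 TPM) was above the highest control sum (32.8 TPM). Beta chains summed to 94.7 ± 5.33 and 141 ± 19.1 TPM, also without overlap. Most of the alpha sum came from Lama3 and Lama5 and most of the beta sum from Lamb3. The groups of these genes did not overlap, so the sums largely restate them. Lama3 made up 32.7 ± 4.597% and 36.9 ± 10.1% of alpha chain TPM and Lama5 37.5 ± 3.83% and 41.2 ± 9.26%, and Lamb3 made up 65.2 ± 3.57% and 68.99 ± 8.46% of beta chain TPM. Lama3 was the larger alpha share in ablated 4, 5 and 7, and Lama5 in the other ablated libraries, up to 55.3% in ablated 6.

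**Figure D4:**
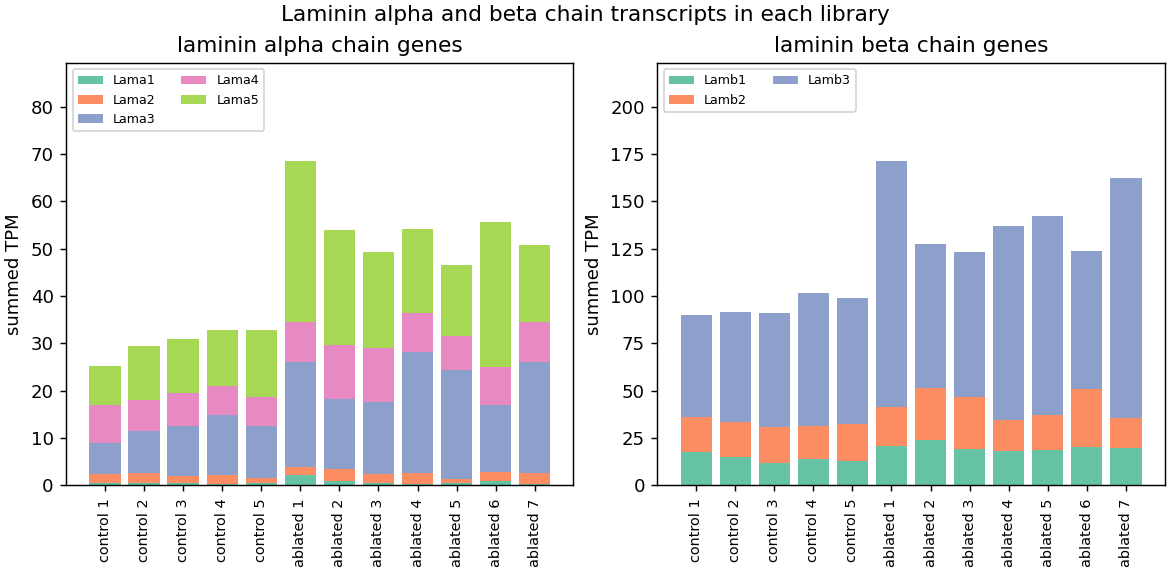
Summed TPM (y axis) of laminin alpha and beta chain genes in each library, by gene. Alpha chain sums run from 25.2 to 32.8 TPM in control and from 46.6 to 68.6 TPM in ablated libraries.

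None of the laminin-binding integrin alpha chains passed. Itga7 is the laminin receptor of muscle. Itga7 was at 16.02, 15.1, 18.3, 16.1 and 22.5 TPM in control 1 to 5 and at 26.1, 22.9, 25.3, 20.9, 24.1, 35.3 and 19.2 TPM in ablated 1 to 7. Control 5 lay above ablated 4 and 7, and ablated 6, with the most muscle marker RNA, was highest; summed skeletal muscle markers were 31.7 ± 7.34 and 66.1 ± 33.8 TPM and their part in Itga7 was not tested. Itga7 had a log2 fold change of 0.48 (95% interval 0.15 to 0.798) with an adjusted p of 0.182, and with the epithelial score as a covariate it was 0.56 (0.0342). Itga3 is the laminin receptor of epithelia. Itga3 was at 46.2, 42.4, 45.5, 47.5 and 53.1 TPM in control 1 to 5 and at 95.6, 59.5, 57.03, 56.3, 48.3, 65.2 and 65.1 TPM in ablated 1 to 7. Ablated 5 was the one ablated library within the control range. Itga3 had a log2 fold change of 0.41 (95% interval 0.11 to 0.72), adjusted p = 0.2304. Itga6, at 25.1 ± 6.49 and 31.6 ± 17.5 TPM, was highest in ablated 4 and 7 and lowest in ablated 1.

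Itgb4, the beta chain of hemidesmosomes, pairs with Itga6. Itgb4 was at 45.3, 45.3, 52.8, 59.9 and 63.5 TPM in control 1 to 5 and at 91.95, 63.7, 66.4, 66.8, 53.7, 59.7 and 77.97 TPM in ablated 1 to 7. Ablated 5 and 6 lay within the control range. Itgb4 had a log2 fold change of 0.35 (95% interval 0.052 to 0.66), adjusted p = 0.313. Itgb1 pairs with many alpha chains and had the highest level of all members. Itgb1 was at 228, 192, 185, 177 and 173 TPM in control 1 to 5 and at 106, 219, 229, 267, 209, 329 and 223 TPM in ablated 1 to 7. Ablated 1 was the lowest of the 12 and ablated 6 the highest. Itgb1 had a log2 fold change of 0.18 (95% interval -0.28 to 0.65), adjusted p = 0.847.

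Itga5, the fibronectin receptor chain, had the largest log2 fold change of the integrins, and it did not pass. Itga5 was at 38.8, 31.3, 29.4, 27.03 and 49.05 TPM in control 1 to 5 and at 118, 72.4, 53.02, 41.6, 46.9, 151.3 and 37.3 TPM in ablated 1 to 7. Ablated 1 and 6 were far above the rest, and ablated 4, 5 and 7 lay within the control range. The log2 fold change was 0.92 (95% interval 0.202 to 1.63) with an adjusted p of 0.259. It passed with the epithelial score (0.00759) or the mitochondrial share (0.0479) as a covariate. Among the other alpha chains that bind the RGD motif, Itgav had means of 12.6 ± 0.451 and 13.2 ± 2.23 TPM, Itga8 of smooth muscle and fibroblasts 3.62 ± 0.601 and 4.003 ± 1.21, and Itga2b of platelets 1.43 ± 0.281 and 1.65 ± 0.773.

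Itga1 is a collagen receptor. Itga1 was at 12.3, 11.4, 10.1, 8.21 and 10.8 TPM in control 1 to 5 and at 8.02, 15.5, 13.5, 21.7, 17.4, 22.2 and 14.4 TPM in ablated 1 to 7. All ablated libraries except ablated 1 lay above the controls, and ablated 1 lay below them. Itga1 had a log2 fold change of 0.53 (95% interval 0.065 to 0.999) with an adjusted p of 0.331, and without ablated 1 it was 0.68 (0.0438). Itga11 is the collagen receptor of fibroblasts. Itga11 was at 0.446, 0.605, 0.5404, 1.03 and 0.5684 TPM in control 1 to 5 and at 1.33, 1.41, 0.971, 0.795, 0.791, 0.876 and 1.03 TPM in ablated 1 to 7. Among controls only control 4 reached the ablated range, on 19 to 84 reads a library. Itga11 had a log2 fold change of 0.43 (95% interval 0.069 to 0.79), adjusted p = 0.304. Itga2, of epithelium and platelets, had means of 1.45 ± 0.511 and 2.88 ± 2.28 TPM, with ablated 4 and 7 highest, and Itga10, of cartilage, 1.95 ± 0.4662 and 2.03 ± 1.04 TPM.

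Itgb5 and Itgb3 pair with Itgav, and Itgb3 also with Itga2b. Itgb5 was at 32.3, 30.999, 33.95, 36.9 and 39.1 TPM in control 1 to 5 and at 28.4, 33.5, 40.6, 35.4, 43.1, 33.5 and 33.7 TPM in ablated 1 to 7. The groups overlapped throughout. The fold change of Itgb5 on the log2 scale was 0.027 (95% interval -0.216 to 0.27) with an adjusted p of 0.968, and its sign flipped under quantile scaling and 5 other alternatives. Itgb3 was at 9.58, 6.29, 7.41, 6.75 and 8.095 TPM in control 1 to 5 and at 5.93, 9.99, 8.23, 7.96, 8.97, 11.05 and 6.97 TPM in ablated 1 to 7. Its range in control lay within that in ablated libraries. The value for Itgb3 was 0.13 (95% interval -0.21 to 0.47), adjusted p = 0.858. Itgb6, the epithelial partner of Itgav, had means of 8.43 ± 0.893 and 8.36 ± 1.295 TPM, and Itgb8 was under the minimum, from 0 to 25 reads a library. Itga9 is a receptor for tenascin. Itga9 was at 7.61, 7.51, 6.87, 6.83 and 8.21 TPM in control 1 to 5 and at 5.46, 9.104, 7.54, 10.1, 9.12, 13.1 and 8.52 TPM in ablated 1 to 7. The groups overlapped through ablated 1 and 3. Itga9 had a log2 fold change of 0.23 (95% interval -0.14 to 0.598), adjusted p = 0.684. Itga4, of lymphocytes and neural crest cells, had means of 2.49 ± 0.604 and 2.47 ± 0.844 TPM.

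No leukocyte integrin passed, and ablated 3 was the highest library for 5 of the 7. Itgb2 is the common beta chain of leukocytes. Itgb2 was at 10.7, 6.29, 5.43, 20.3 and 10.2 TPM in control 1 to 5 and at 6.35, 11.3, 35.4, 7.83, 6.27, 3.34 and 6.85 TPM in ablated 1 to 7. Ablated 3 and control 4 were the high libraries of their groups, as they were for summed pan-leukocyte markers (417 and 357 TPM); the part of leukocyte content was not tested. Itgb2 had a log2 fold change of -0.16 (95% interval -1.17 to 0.85) with an adjusted p of 0.953, and its sign flipped without control 4 or without ablated 6. Itgam is found on macrophages and neutrophils. Itgam was at 4.23, 2.34, 3.08, 9.67 and 5.85 TPM in control 1 to 5 and at 6.198, 6.11, 12.2, 5.01, 3.98, 2.67 and 5.54 TPM in ablated 1 to 7. The same pair of libraries was highest. Itgam had a log2 fold change of 0.25 (95% interval -0.4996 to 1.01), adjusted p = 0.879. Itgal is found on lymphocytes. Itgal was at 2.08, 1.73, 1.23, 4.01 and 2.01 TPM in control 1 to 5 and at 1.53, 2.13, 6.405, 1.13, 1.05, 0.534 and 1.18 TPM in ablated 1 to 7. Ablated 6 was the lowest of the 12. Itgal had a log2 fold change of -0.31 (95% interval -1.17 to 0.54), adjusted p = 0.864. Itgax, of dendritic cells, had means of 4.94 ± 1.97 and 4.84 ± 3.68 TPM, Itgb7, of gut-homing lymphocytes, 4.61 ± 1.78 and 4.71 ± 3.63, and Itgae, its partner on T cells in the epithelium, 1.88 ± 0.386 and 1.79 ± 0.767. Itgad was under the minimum, with at most 5 reads a library. The 8 pan-leukocyte markers summed to 195 ± 93.8 and 163 ± 114 TPM, each above 0 in some library, and none passed.

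**Figure D5:**
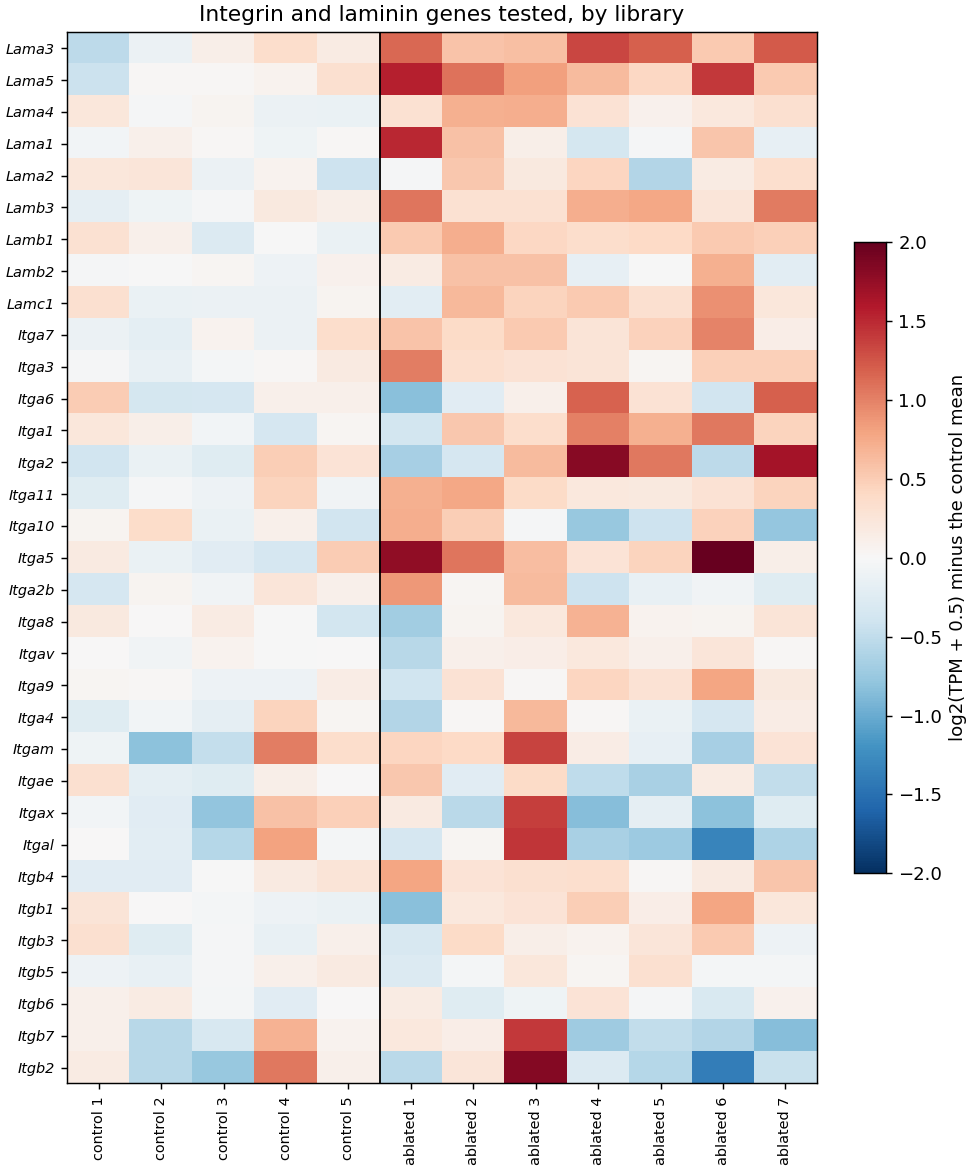
Level of 33 genes tested in each library (columns), as log2(TPM + 0.5) minus the control mean, by role. Lama3 is above 0 in all 7 ablated libraries, ablated 3 is high for the leukocyte integrins, and ablated 1 and 6 are high for Itga5 and Lama5.

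The ablated libraries differed among themselves. Chosen after their values were seen, Itga2 and Itga6 were highest in ablated 4 and 7, the libraries with the highest epithelial marker sums (21275 and 22373 TPM). Itga3, Itgb4 and Lamb3 were highest in ablated 1, which had the lowest epithelial marker sum of the 12 libraries (16208 TPM). Ablated 7, with the highest such sum, came next for Itgb4 (77.97 TPM) and Lamb3 (126 TPM). Itga5, Itga7, Itgb1 and Lamb2 were highest in ablated 6, the library with the highest smooth muscle marker sum. So were Itga1, Itga9, Itgav, Itgb3 and Lamc1. Itga8, of smooth muscle and fibroblasts, was highest in ablated 4 (6.14 TPM) and at 3.74 TPM in ablated 6. Itga5 and Itga7 were next highest in ablated 1 (118 and 26.1 TPM), which had the lowest smooth muscle marker sum of the ablated libraries (7070 TPM). The part of tissue make-up in these differences was not tested.

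Partners of the same adhesion sites were taken from 4 lists of 82 genes, of which 79 were tested; 1 rose and none fell (limma), and 20 were higher and 2 lower at an unadjusted p under 0.05. Over all genes 0.421% rose, and 7.07% were higher and 4.75% lower at an unadjusted p under 0.05. The gene that rose was Dst, dystonin, a plakin from the hemidesmosome list, at 12.3 ± 1.51 and 18.7 ± 2.77 TPM. The highest control (13.9 TPM) overlapped narrowly with the lowest ablated library (13.8 TPM). Gene-level TPM do not tell apart its isoforms or the cell types that express it. Dst had a log2 fold change of 0.58 (limma, adjusted p = 0.0431). It passed without ablated 1 (0.00861) and missed the threshold without any one of the other 11 libraries (0.0536 to 0.139). The median over the 79 was 0.21, with 59 positive, against a median of 0.032 and 8997 of 16164 positive over all genes. The 4 lists were chosen with earlier results of these data known, so these counts describe the lists and test nothing. Fibronectin, Fn1, the ligand of Itga5 with Itgb1, was at 81.4 ± 14.6 and 159.6 ± 59.7 TPM (adjusted p = 0.0668), and tenascin C, Tnc, at 29.2 ± 4.71 and 50.6 ± 26.1 (0.293). Sgcd, a sarcoglycan of smooth and striated muscle, was at 1.82 ± 0.245 and 3.26 ± 0.741 TPM (adjusted p = 0.0575), and the laminin-binding proteoglycan agrin, Agrn, at 25.7 ± 4.36 and 37.2 ± 7.11 (0.128). Of 30 adaptors and kinases none passed: Parvb, which binds integrin-linked kinase, was at 3.26 ± 0.485 and 2.03 ± 0.765 TPM (adjusted p = 0.214) and the focal adhesion protein Zyx at 45.004 ± 5.35 and 58.1 ± 12.7 (0.325).

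The authors' deposited table gives its own comparison. In the authors' deposited table the log2 fold change is 0.96 for Lama3, 0.98 for Lama5, 0.65 for Lamb3, 0.46 for Lamb1 and 1.09 for Itga5. The false discovery rates in the authors' deposited table are 0.0259, 0.0674, 0.125, 0.126 and 0.2904, in the same order.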

How the data were processed

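Poly(A) RNA of 12 colon pieces was made into strand-specific libraries, per the labels' protocols. The submitters' processing notes name bcl2fastq 2.17, HISAT, featureCounts and the mm10 build; the strand setting of the counting is not given in the sources used here. The authors deposited TPM per gene in a series table and in 12 single files with the same values. Per the file headers that table also holds the authors' log2 fold change, mean log2 CPM, F (a score), p-value and false discovery rate, which are quoted only where named.

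TPM are not counts, so limma 3.58.1 (R 4.3.3, eBayes with trend) was run on log2(TPM + 0.5), ablated minus control, over the genes that reached 0.5 TPM in 5 or more libraries. This scale understates changes of low genes. Adjusted p-values are Benjamini-Hochberg values for the whole table. The fit was tested on simulated data. Whole reads could be recovered for 22840 of 22842 genes above 0 (a length of 20 to 30000 bases putting each value within 0.05 read of a whole number), which gave depth and reads. Coordinates are those of GENCODE (GRCm38); RefSeq promoters matched 23 of 37 members.

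Members and lists were chosen with earlier results of these data known. Library values are given for members that passed and, in each of 11 roles, for the member with the smallest p and the one with the highest level, 19 in all, of which 1 is not reported here, nor any sum or ratio that holds it; pathway genes are those that passed and otherwise the 2 of each list with the smallest p. Alternatives changed the added constant, the minimum, scaling, library weights, covariates, a block, the test and the libraries used.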

Additional observations from a re-analysis of the deposited data

Results flagged for a closer look

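Within groups, the highest or lowest library was compared with its nearest neighbour (Dixon's 95% limits), and 11 of 74 groups held a library far from the others. Chance gives about 1 in 20, and the genes are not independent. Ablated 3 was far above the other ablated libraries for Itgb2 (35.4 TPM), Itgax (12.9 TPM), Itgb7 (12.5 TPM), Itgam (12.2 TPM) and Itgal (6.405 TPM). Its pan-leukocyte and myeloid marker sums, 417 and 2005 TPM, were the highest of the 12, and their part was not tested. Ablated 1 was far above the others for Itga3 (95.6 TPM) and Lama1 (2.21 TPM) and far below for Itgav (8.43 TPM). Ablated 6 stood apart for Itga7 (35.3 TPM), ablated 2 for Lamb1 (23.9 TPM) and control 4 for Itga11 (1.03 TPM).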

How the results depend on the processing

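The main settings called 231 genes, against 349 with no minimum, 1092 with library weights, 831 with the epithelial score, 693 with the mitochondrial share and 128 to 328 with a library left out (128 without control 2, 137 without control 3). The share of calls that were higher was 29.4% with the main settings, 59.9% with library weights, 47.5% with the epithelial score, 48.2% with the mitochondrial share and 18.2% with voom. Members called were 1 with the main settings, 6 with library weights (Itga1, Lama3, Lama5, Lamb1, Lamb3 and Lamc1), 2 with the smooth muscle score (Lama3 and Lamb3), 5 with the epithelial score (Itga5, Itga7, Lama3, Lama5 and Lamb1) and 6 with the mitochondrial share (Itga3, Itga5, Lama3, Lama5, Lamb1 and Lamb3). With a library left out, 0 to 3 were called: 0 without control 2, 3 or 5 or ablated 4, 3 without ablated 1 (Itga1, Lama3 and Lama5), Lamb1 without control 1 and Lama5 without ablated 5 or 7. Adhesion pathway genes called were 1 with the main settings, 0 with quantile scaling and with voom, 8 with library weights, 3 with the smooth muscle score, 11 with the epithelial score, 4 with the mitochondrial share, and 0 to 3 with a library left out (3 without ablated 1, 0 without any other). The cause of these moves was not tested. With the library number as a replicate block, 84 genes and 0 members passed (Lama3 adjusted p = 0.118). Same-numbered libraries correlated at -0.27 to 0.36, and only number 2 correlated best with its own number. The best correlations were themselves weak (0.038 to 0.42), so this check cannot decide whether the numbers pair the samples. The log2 fold change of Itgb2 turned to 0.14 with the replicate block, 0.103 without control 4 and 0.043 without ablated 6 (-0.49 to 0.103 with a library left out). That of Itgb5 turned to -0.032 with quantile scaling, -0.034 with the epithelial score, -0.034 with voom, -0.011 without control 2, -0.0073 without ablated 3 and -0.021 without ablated 5 (-0.021 to 0.078 with a library left out). Itgad, Itgb8 and Lamc3 rest on at most 31 reads a library, and in the limma fit with no minimum none of them passed (adjusted p = 0.9999, 0.992 and 0.2202). In that fit 1 member, Lamc3, was lower at an unadjusted p under 0.05.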

Other observations

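Ratios of TPM between partner chains are given with no test. The 12 alpha chains that pair with Itgb1 summed to 77.8 to 110.5% of the Itgb1 level in control libraries, to 89.04 to 103% in ablated 2 to 7 and to 267% in ablated 1, where Itgb1 was lowest. Itgb4 stood at 119 to 681% of the level of Itga6, lowest in ablated 4 and highest in ablated 1.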
